A study of Mus musculus with 34 samples.

Results

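Microtubule inner proteins line the inside of the doublet microtubules of motile cilia, and 9 genes that encode them were followed here by RNA sequencing of cultured mouse ependymal cells. The members were Cfap45, Cfap52, Cfap53, Efhc2, Efhb, Enkur, Nme7, Mns1 and 1700007K13Rik (also named Pierce1). They were chosen by name, matched through their Ensembl identifiers, and made up 9 of the 21647 genes in the table. All 9 passed the filter on low counts in each comparison. Ependymal cells are the multiciliated cells of the brain ventricles. Cells of the lateral ventricular walls of E18.5 embryos were differentiated in culture for 4 days without serum. There were 34 libraries in 6 groups, from homozygous knockouts of Rfx1, Rfx2 or Rfx3 (Rfx1-/-, Rfx2-/-, Rfx3-/-) and from +/+ littermate controls of each line. Knockouts gave 4, 6 and 6 libraries for Rfx1, Rfx2 and Rfx3, and their controls 4, 8 and 6. The strain is labelled C57BL/6 in every group, and the term OF1 in the titles is left unexplained. The labels name no allele, Cre driver or further agent. Nothing says that replicates came from separate embryos or cultures, so p-values measure only the spread between these samples, which may be technical.

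RFX proteins are winged-helix transcription factors that bind X-box sequences, and many genes of the cilium carry such sequences near their start. The axoneme of a motile cilium is built from doublet microtubules, each a complete A-tubule with an incomplete B-tubule attached. Microtubule inner proteins sit on the luminal face of these tubules in a repeating pattern and brace them against the bending of the beating cilium. Cfap45, Cfap52 and Enkur belong to the B-tubule and lie near the inner junction that closes it. Efhc2, Nme7, Mns1, Cfap53 and Pierce1 are proteins of the A-tubule, and Pierce1 and Cfap53 also help to anchor the outer dynein arms. Efhb is a further EF-hand protein of the doublet lumen. Loss of several of these genes, among them Cfap53, Mns1, Enkur and Pierce1, disturbs left-right asymmetry.

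Library sizes were between 18.2 and 53.4 M counts, and a member had between 53 and 8411 counts in a library. Foxj1, a transcription factor that drives the motile cilium program, was present in all 34 libraries, and its lowest group mean was 750.4 CPM (counts over the library's scaled total). The targeted mRNA was lower in every knockout library than in every wild type of its line. Rfx1 was 25.2 ± 5.01 against 66.6 ± 10.6 CPM (SD, n = 4 and 4), Rfx2 49.3 ± 4.33 against 106 ± 14.6 (n = 6 and 8) and Rfx3 39.8 ± 9.16 against 174 ± 17.3 (n = 6 and 6). The Rfx3 knockouts fell into separate sets. Replicates 1, 2 and 3 had Foxj1 at 1478, 1437 and 1392 CPM and Mcidas, a regulator of multiciliation, at 93.5, 90.5 and 66.6 CPM. Replicates 4, 5 and 6 had Foxj1 at 755, 758 and 678 CPM and Mcidas at 19.8, 22.3 and 13.2 CPM, while Rfx3 itself was low in both sets. Rfx3 results are therefore also given without replicates 4 to 6, a choice made after seeing the data. Y-linked genes summed to more than 5 CPM in 1 Rfx1 knockout and 4 Rfx1 controls, in 3 Rfx2 knockouts and 4 controls, and in 4 Rfx3 knockouts and 2 controls.

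In the wild types the members differed in level by more than an order of magnitude, and their order was much the same in the 3 lines. On the scale of CPM per kilobase of exon, Enkur was highest, at 83.5 ± 10.6 (SD, n = 4) in the Rfx1 line, 82.0 ± 14.3 (n = 8) in the Rfx2 line and 99.0 ± 6.36 (n = 6) in the Rfx3 line. 1700007K13Rik and Cfap52 came next, at 64.8 ± 9.08 and 61.6 ± 8.02 per kilobase in the Rfx1 line, 44.8 ± 11.8 and 44.9 ± 13.1 in the Rfx2 line, and 76.4 ± 7.24 and 61.2 ± 6.53 in the Rfx3 line. The ranges of these next 2 genes overlapped in each wild-type group. Mns1 followed at 15.9 to 27.6 per kilobase as group means, then Cfap45 at 11.3 to 17.4. Nme7 and Efhb, at 8.74 to 10.6 and 8.03 to 9.71, had overlapping ranges in each wild-type group. Cfap53 (4.44 to 8.38) and Efhc2 (3.40 to 6.92) were lowest, and Efhc2 was below Cfap53 in every wild-type library. In the Rfx2 line the ranges of neighbours in this order overlapped throughout, apart from the step from 1700007K13Rik down to Mns1.

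The wild-type groups themselves were not alike. In a fit of all 34 libraries with edgeR's quasi-likelihood test (Benjamini-Hochberg adjusted p below 0.05 over all genes), 6 members differed among the 3 wild-type groups, where 57.7% of all genes did. They were Cfap45, Cfap53, Efhc2, Nme7, Mns1 and 1700007K13Rik, and each was lowest in the Rfx2 line. Against the Rfx1 wild types, the log2 level of Mns1 in the Rfx2 wild types was lower by -0.56 and that of Cfap53 by -0.73 (adjusted p = 0.000176 and 0.00418). Cfap45 was not called without Rfx2_WT replicate 1 (adjusted p = 0.0646) or 5 (0.0606). Cfap52 (0.12), Efhb (0.198) and Enkur (0.328) did not pass, although Cfap52 passed without Rfx2_WT replicate 3 (0.0416). Line and any batch cannot be told apart, so knockouts were compared only with wild types of their own line.

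**Figure D1:**
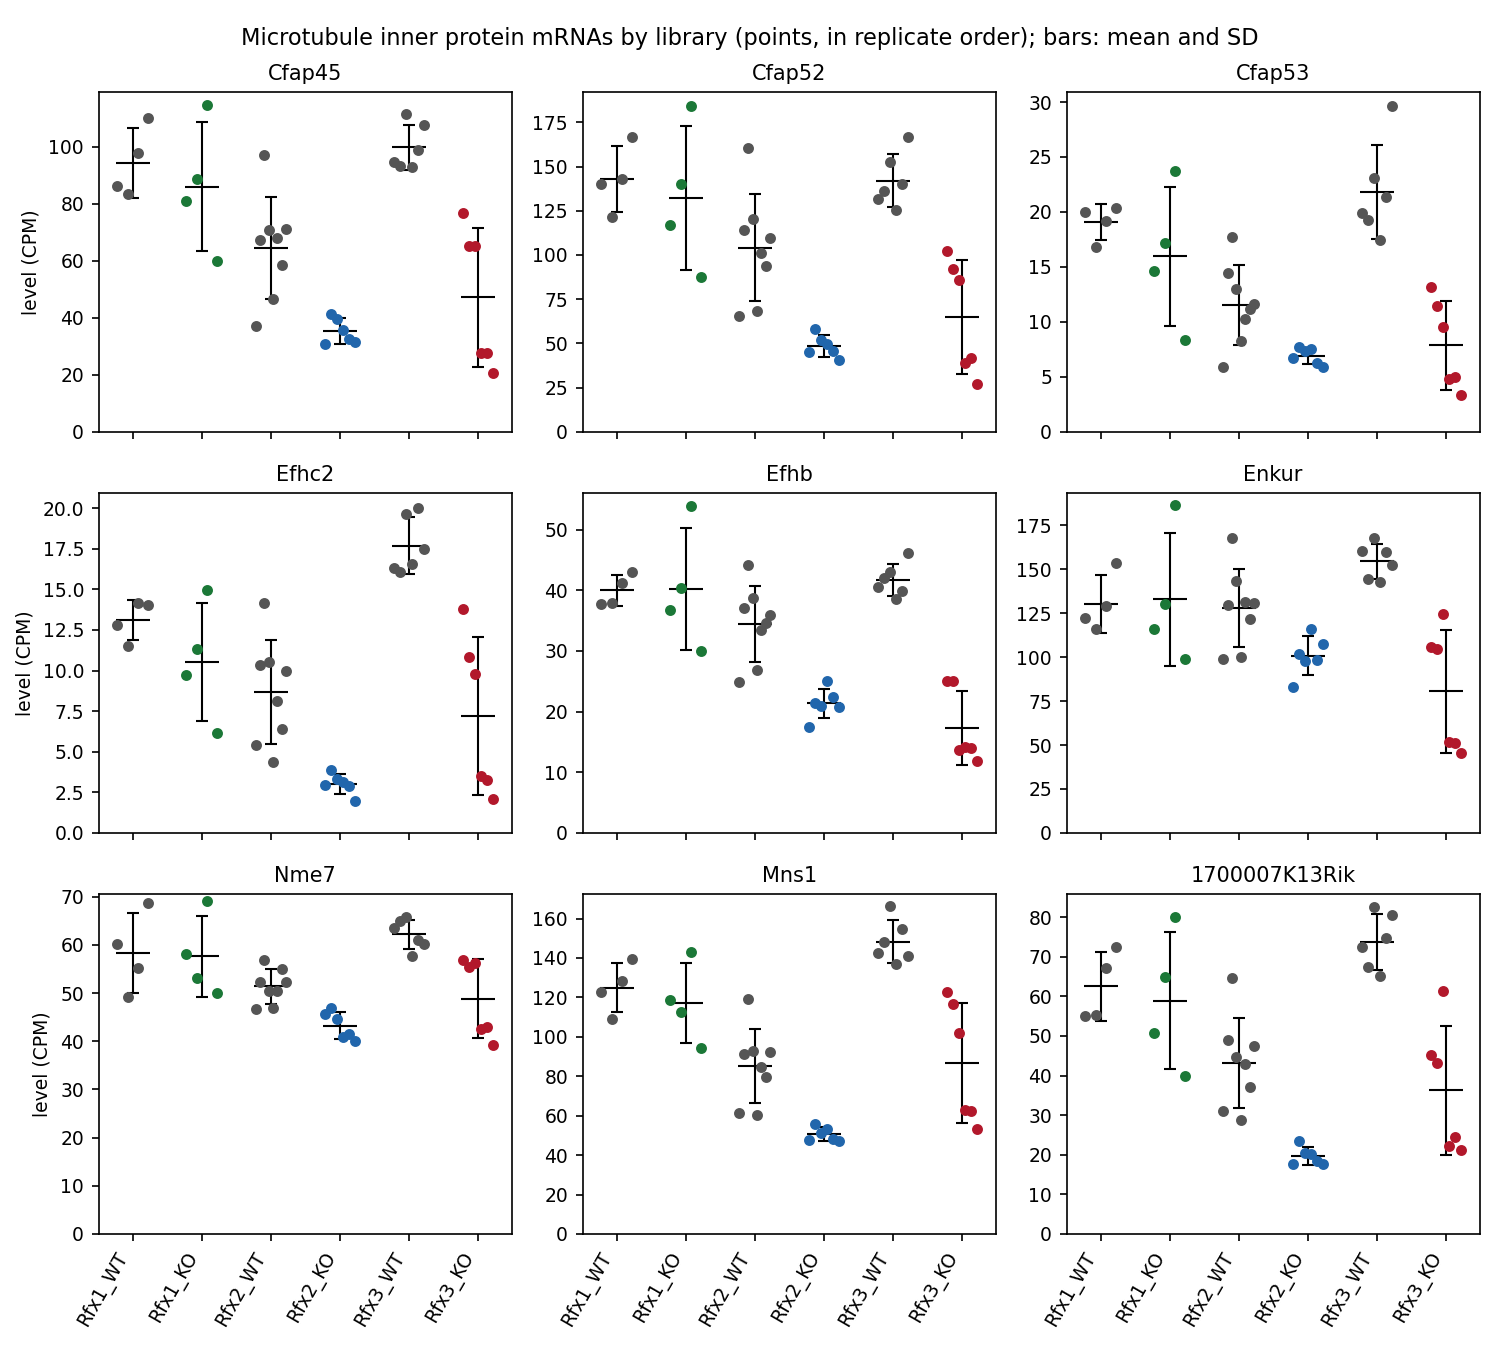
Level in CPM of each of the 9 genes (1 panel a gene, vertical axis from 0) in every library, by group; points are libraries in replicate order and bars give the mean and SD. Every Rfx3 knockout point lies below every Rfx3 wild-type point, the Rfx3 knockouts split into 3 higher and 3 lower libraries for each gene but Efhb, and the Rfx1 groups overlap for each gene.

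Promoters were read from RefSeq on GRCm38.p6, to show where RFX-type sequences lie near the start sites of the members. Of the 9 members, 7 were read, and Cfap53 and Efhb are not analysed here. Each window searched ran from 250 bases before to 50 after the start site. The X-box was searched as GTNNCC followed, after any 3 bases, by GNAAC, and its core as AGCAAC or the form GGCAAC, and as AGTAAC or the form GGTAAC, on both strands. An X-box ends in a core sequence or a near form of it, so matches of the longer and shorter patterns overlap. An X-box was found in 3 of the 7 members, against 2.17% of 32851 mouse promoters, and a core in 7 of 7, against 35.8%. These are the 3 promoters with an X-box and those of the 3 genes that fell most in Rfx2 knockouts. Each runs 5′ to 3′ along the gene, from 140 bases before to 15 bases after the start site, with every match in capitals.
Cfap45: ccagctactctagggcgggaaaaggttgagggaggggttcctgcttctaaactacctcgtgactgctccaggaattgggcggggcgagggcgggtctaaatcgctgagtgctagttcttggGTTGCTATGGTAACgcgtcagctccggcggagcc
Enkur: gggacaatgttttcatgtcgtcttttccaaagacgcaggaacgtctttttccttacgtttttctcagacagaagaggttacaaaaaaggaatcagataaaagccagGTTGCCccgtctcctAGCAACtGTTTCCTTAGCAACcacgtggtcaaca
Nme7: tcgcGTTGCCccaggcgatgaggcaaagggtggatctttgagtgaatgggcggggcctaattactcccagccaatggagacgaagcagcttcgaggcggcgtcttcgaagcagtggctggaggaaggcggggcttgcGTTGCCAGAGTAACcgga
Cfap52: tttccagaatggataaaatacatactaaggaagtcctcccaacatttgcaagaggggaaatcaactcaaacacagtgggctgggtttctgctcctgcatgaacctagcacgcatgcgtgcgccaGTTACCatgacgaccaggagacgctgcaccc
Efhc2: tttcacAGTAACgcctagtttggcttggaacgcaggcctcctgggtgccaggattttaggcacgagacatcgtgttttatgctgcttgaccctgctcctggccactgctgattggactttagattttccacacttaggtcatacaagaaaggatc
1700007K13Rik: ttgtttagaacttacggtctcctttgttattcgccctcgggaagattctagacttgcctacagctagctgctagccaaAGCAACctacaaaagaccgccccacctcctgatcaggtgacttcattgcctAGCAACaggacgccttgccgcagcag
These windows are chr1:172520990-172521144 (plus strand) for Cfap45, chr2:21205351-21205505 (minus) for Enkur, chr1:164307532-164307686 (plus) for Nme7, chr11:67965628-67965782 (minus) for Cfap52, chrX:17319927-17320081 (minus) for Efhc2 and chr2:28466310-28466464 (minus) for 1700007K13Rik.

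The X-box matches lay at the start site in all 3 genes that had one. With the first transcribed base as 1 and no position 0, that of Cfap45 ran from -19 to -6 (found on the minus strand of the gene), that of Enkur from -12 to 2 and that of Nme7 from -3 to 11. Enkur held 2 further cores upstream, and Nme7 held a further core at -136 to -131. Cfap52 held a core at -16 to -11, 1700007K13Rik at -62 to -57 and at -11 to -6, and Mns1, not printed, at -72 to -67 and at 16 to 21. The core of Efhc2 lay at -134 to -129. The RefSeq start used for Efhc2 lies 573 bases from the gene start in the GENCODE annotation. For Cfap45, Mns1 and Nme7 the distance is 329, 518 and 3551 bases. The first bases from the Efhc2 start are in no GENCODE transcript of that gene, and those of the other members read here are. A match describes letters in the window and was not tested for binding. Of the genes with an X-box match, Enkur and Nme7 moved least in Rfx2 knockouts (log2 difference -0.37 and -0.27), and Cfap45 had -0.90. Efhc2 (-1.55), 1700007K13Rik (-1.16) and Cfap52 (-1.13), which fell most there, had cores but no X-box match. A link between matches and decreases was not tested.

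**Figure D2:**
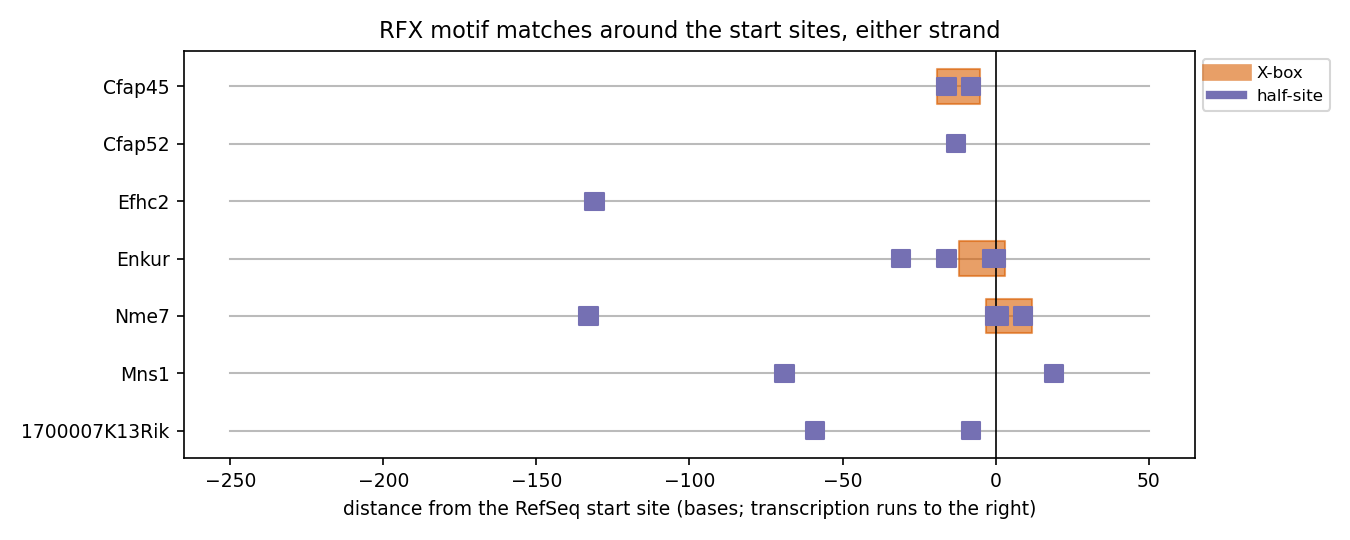
Position of X-box matches (orange) and shorter core matches, labelled half-site (purple), against the RefSeq start site, in bases, for the 7 members read. The X-box matches of Cfap45, Enkur and Nme7 touch or lie within 19 bases of the start site. The core match of Efhc2 lies at -134 to -129, and Nme7 has a further core match at -136 to -131.

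In Rfx3 knockouts all 9 members fell. At this threshold 23.5% of all 14340 genes tested were called and 12.9% were called lower. The median log2 difference of the members was -1.10, with a range from -1.49 to -0.36, against 0.02 over all genes tested. All 6 knockouts lay below every wild type for 9 of 9 members, a pattern that 9.16% of all genes showed. In bulk RNA, fewer ciliated cells and less RNA per cell cannot be told apart.

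Among the B-tubule genes, Cfap45 (ENSMUSG00000026546, chromosome 1, 172520801 to 172545870 on GRCm38), which encodes a protein of the B-tubule lumen, had a lowest, median and highest level of 20.5, 46.4 and 76.6 CPM in Rfx3 knockouts and 92.9, 96.6 and 111 CPM in wild types. The groups did not overlap, and no knockout lay near the knockout median, since replicates 1 to 3 were at 65.2 to 76.6 and replicates 4 to 6 at 20.5 to 27.6 CPM. The log2 difference was -1.10 (SE 0.29, adjusted p = 0.0187 in edgeR), or -0.53 (0.00802) without replicates 4 to 6. Cfap52 (ENSMUSG00000020904, chromosome 11, 67924806 to 67965651), a WD-repeat protein of the B-tubule, ran from 27.2 through 63.8 to 102 CPM in knockouts and from 125 through 138 to 167 in wild types, again without overlap. Its log2 difference of -1.15 (SE 0.29, adjusted p = 0.0141) became -0.61 (0.00877) without those 3 libraries. Enkur (ENSMUSG00000026679, chromosome 2, 21180731 to 21205365), the B-tubule protein enkurin, had 45.4, 78.2 and 125 CPM in knockouts and 143, 156 and 168 in wild types. Replicate 3 was the highest knockout, and it lay below the lowest wild type. The log2 difference was -0.96 (SE 0.24, adjusted p = 0.0136), or -0.47 (0.0117) in replicates 1 to 3 alone.

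The A-tubule genes moved by very different amounts. Cfap53 (ENSMUSG00000035394, chromosome 18), a coiled-coil protein linked to the outer dynein arms, had the largest log2 difference of the members in edgeR with all libraries, whereas Efhc2 had it with limma-voom (-1.66) and without replicates 1 to 3 (-2.58), and Efhb without replicates 4 to 6 (-0.97). Cfap53 had 3.33, 7.24 and 13.1 CPM in knockouts and 17.4, 20.6 and 29.6 in wild types, a log2 difference of -1.49 (SE 0.30, adjusted p = 0.00596). Without replicates 4 to 6 that difference was -0.94 (0.0129). Efhc2 (ENSMUSG00000025038, X chromosome, 17132049 to 17319368), an EF-hand protein of the A-tubule, spread most within the knockouts, from 2.08 through 6.64 to 13.8 CPM, against 16.1, 17.0 and 20.03 in wild types. Its log2 difference of -1.31 (SE 0.39, adjusted p = 0.03) was not called without Rfx3_KO replicate 4 (0.0617) or 5 (0.0591), or Rfx3_WT replicate 1 (0.0511), 3 (0.0624) or 5 (0.0586), but was called without replicates 4 to 6 together (-0.62, 0.0199).

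1700007K13Rik (ENSMUSG00000026831, chromosome 2, 28462001 to 28466332), the Pierce1 gene, had 21.1, 33.8 and 61.2 CPM in knockouts and 65.0, 73.6 and 82.5 in wild types. Its highest knockout, replicate 3, came close to the lowest wild type. The log2 difference was -1.04 (SE 0.24, adjusted p = 0.00996), or -0.57 (0.0286) without replicates 4 to 6. Mns1 (ENSMUSG00000032221, chromosome 9, 72438011 to 72462025), a filament-like protein of the A-tubule, went from 137, 145 and 166 CPM in wild types to 53.5, 82.5 and 122 in knockouts (log2 difference -0.79, SE 0.19, adjusted p = 0.0131, and -0.39, 0.0246, without replicates 4 to 6). Of its 5363 exon bases, 2842 are shared with Tex9 on the opposite strand, and whether strand was used in counting is not given in the sources used here, so its reads cannot be told apart from those of Tex9 there.

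Nme7 (ENSMUSG00000026575, chromosome 1, 164304121 to 164437725), a nucleoside diphosphate kinase family protein that is also a subunit of the centrosomal gamma-tubulin ring, moved least. Its knockouts had 39.2, 49.2 and 56.9 CPM and its wild types 57.7, 62.2 and 65.8, so the groups were separated by less than 1 CPM. The log2 difference was -0.36 (SE 0.10, adjusted p = 0.0188), and without replicates 4 to 6 it was -0.15 and did not pass (0.134). Nme7 shares 575 of its 5876 exon bases with Atp1b1 and 189 with Blzf1, both on the opposite strand.

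Efhb (ENSMUSG00000023931, chromosome 17, 53398889 to 53463321) had the smallest adjusted p of the members in this line. Its level was 25.0, 25.0 and 13.7 CPM in Rfx3 knockout replicates 1 to 3 and 14.1, 14.1 and 11.9 in replicates 4 to 6, against 38.5, 41.3 and 46.1 CPM as the lowest, median and highest wild type. Every knockout was far below every wild type, and replicate 3, which had kept Foxj1, was as low as the libraries with little Foxj1. In that replicate Efhb lay -1.60 from the wild-type mean in log2, while Enkur lay at -0.31 and 1700007K13Rik at -0.26. The log2 difference of Efhb was -1.28 (SE 0.18, adjusted p = 0.00128), and -0.97 (0.0101) without replicates 4 to 6.

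Over all 9 members, the mean log2 offset from the wild types was -0.48, -0.60 and -0.69 in Rfx3 knockout replicates 1 to 3 and -1.64, -1.62 and -1.98 in replicates 4 to 6. In the first set every member lay below its wild-type mean in each library. Without replicates 4 to 6, 8 of 9 members were called, among 996 genes in all, and without replicates 1 to 3, 9 of 9 were, among 8189 genes. With replicates 1 to 4 of each group only, 1 of 9 members was called (Efhb), among 194 genes.

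Other markers moved in this line too. Over all 14340 genes tested in the line, 1517 were called higher and 1857 lower. Of 8 regulators of multiciliation 0 were called in Rfx3 knockouts by edgeR, 4 had an unadjusted p under 0.05 (Foxj1, Cdc20b, Deup1 and Trp73), and Foxj1 had a log2 difference of -0.53 (SE 0.20, adjusted p = 0.0706). The summed level of those 8 genes was 2209 to 2524 CPM in knockout replicates 1 to 3, 971 to 1180 in replicates 4 to 6 and 2352 to 2911 in wild types. Of 8 astrocyte markers 3 rose (Aldh1l1, Aldoc and Serpina3n), with sums of 2547 to 3530 CPM in replicates 1 to 3, 4716 to 5095 in replicates 4 to 6 and 2068 to 4491 in wild types. Of 8 oligodendrocyte lineage markers 2 rose (Olig1 and Olig2), with sums of 208 to 393, 453 to 611 and 122 to 357 CPM in the same order. Of 8 ependymal markers 5 fell, with sums of 2832 to 3988 CPM in all knockouts and 3278 to 4076 in wild types. Of 8 neuron and neuroblast markers 2 rose (Stmn2 and Sp8) and 2 fell (Map2 and Dlx2), with sums of 407 to 590 CPM in knockouts, all below the 608 to 686 in wild types. Of 6 choroid plexus markers 4 were tested and 3 fell (Folr1, Clic6 and Aqp1), with sums of 45.1 to 75.7 CPM in replicates 1 to 3, 23.5 to 29.4 in replicates 4 to 6 and 65.9 to 84.3 in wild types. Of 8 microglia markers edgeR called 0, and 0 had an unadjusted p under 0.05, with sums of 51.4 to 248 and 48.0 to 378 CPM. No marker of these lists was at 0 throughout a group, and their part in the members' decrease was not tested.

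**Figure D3:**
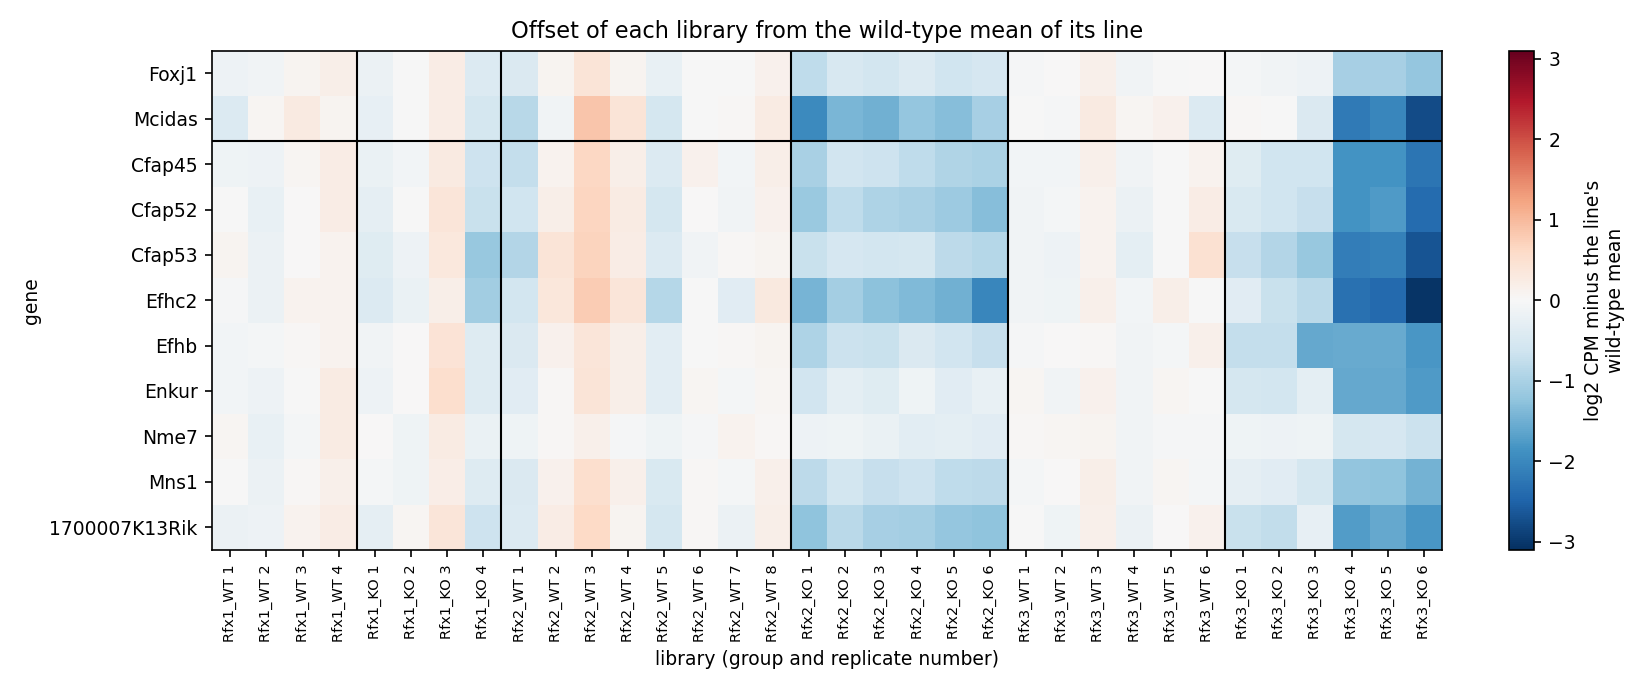
Offset of each library (columns, by group and replicate) from the wild-type mean of its line, in log2 CPM, for Foxj1, Mcidas and the 9 members (rows); blue is lower and red higher. Rfx3 knockout replicates 4 to 6 are lowest, with member means from -1.98 to -1.62, and Rfx3 knockout replicates 1 to 3 have Foxj1 offsets from -0.15 to -0.06 beside member means from -0.69 to -0.48.

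In Rfx2 knockouts all 9 members fell as well. In this line 32.3% of all 14305 genes were called and 18.4% were called lower. The members' median log2 difference was -0.78, with a range from -1.55 to -0.27, against 0.01 over all genes tested. The median in Rfx3 knockouts was larger with all 6 libraries (-1.10) and smaller without replicates 4 to 6 (-0.57), and the tests of the difference between these lines are given further on. Every knockout was below every wild type for 4 of 9 members, Cfap52, Efhc2, Mns1 and 1700007K13Rik, while 6.75% of all genes showed that pattern.

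Efhc2 had the largest decrease, from 4.39, 9.06 and 14.2 CPM as the lowest, median and highest wild type to 1.97, 3.03 and 3.87 in knockouts. The groups did not overlap, and the mean level was 0.342 of the wild-type level by the fitted log2 difference of -1.55 (SE 0.25, adjusted p = 0.000515 in edgeR). 1700007K13Rik went from 28.9, 43.7 and 64.6 CPM to 17.5, 19.3 and 23.6, also without overlap (log2 difference -1.16, SE 0.17, adjusted p = 0.00022). Cfap52 went from 65.5, 105 and 160 CPM to 40.4, 47.8 and 58.2, with no overlap (-1.13, SE 0.18, adjusted p = 0.000466). The wild types of these 3 genes spread over more than a doubling, and the knockouts of Cfap52 and 1700007K13Rik were closer together.

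Cfap45 had 30.8, 34.1 and 41.4 CPM in knockouts and 37.0, 67.6 and 97.1 in wild types. Knockout replicates 2 and 3 were above Rfx2_WT replicate 1, the lowest wild type, and the log2 difference was -0.90 (SE 0.18, adjusted p = 0.00169). Mns1 separated the groups, with 47.2, 49.6 and 55.9 CPM against 60.3, 88.0 and 119 (-0.78, SE 0.14, adjusted p = 0.000783). Cfap53 had 5.90, 7.06 and 7.71 CPM in knockouts and 5.88, 11.4 and 17.7 in wild types, and Rfx2_WT replicate 1 was below all 6 knockouts. Its log2 difference was -0.77 (SE 0.20, adjusted p = 0.00922). Efhb had 17.5, 21.2 and 25.0 CPM in knockouts and 25.0, 35.2 and 44.2 in wild types, so that the groups touched, with a log2 difference of -0.72 (SE 0.12, adjusted p = 0.000699).

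Enkur and Nme7 moved least in the Rfx2 line. Enkur had 83.1, 100.2 and 116 CPM in knockouts and 99.2, 130 and 168 in wild types, and only 3 of 6 knockouts were below every wild type. Its log2 difference of -0.37 (SE 0.12, adjusted p = 0.0234) was not called without Rfx2_KO replicate 1 (0.062), in a fit of all groups (0.165), or with replicates 1 to 4 (0.0851) or 4 to 8 only (0.137). Nme7 had 40.1, 43.1 and 46.9 CPM in knockouts and 46.7, 51.4 and 56.8 in wild types, with 5 of 6 knockouts below every wild type (-0.27, SE 0.06, adjusted p = 0.00266). Nme7 and Cfap53 were not called with replicates 1 to 4 only (0.0745 and 0.0793).

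The Rfx2 wild types varied together across the members. Rfx2_WT replicates 1 and 5 had mean offsets of -0.51 and -0.45 from the group's log2 mean and replicate 3 had 0.54, while the 6 knockouts ran from -0.95 to -0.60. Foxj1 fell in this line, from 1129 ± 191 CPM (SD, n = 8) to 750.4 ± 63.6 (n = 6), a log2 difference of -0.62 (SE 0.11, adjusted p = 0.000978), and Mcidas by -1.49 (0.00048). Over all 14305 genes tested in the line, 1988 were called higher and 2638 lower. Of the 8 regulators of multiciliation 7 fell, and their sum was 1031 to 1411 CPM in knockouts and 1279 to 2471 in wild types. Of the 8 ependymal markers 6 fell and 1, Aqp4, rose. The 8 oligodendrocyte lineage markers had sums of 111 to 484 CPM in knockouts and 112 to 336 in wild types. Of 8 astrocyte markers 2 rose, with sums of 5731 to 10736 and 4515 to 8371 CPM. Of 8 neuron and neuroblast markers 7 were tested and 1 rose (Map2), with sums of 978 to 1018 CPM in knockouts, all above the 710.3 to 864 in wild types. Of 6 choroid plexus markers 4 were tested and 1 fell (Clic6), with sums of 40.7 to 60.8 and 48.1 to 65.6 CPM. Of 8 microglia markers edgeR called 0, and 0 had an unadjusted p under 0.05, with sums of 306 to 1046 and 303 to 992 CPM. The part of these markers in the members' decrease was not tested.

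In Rfx1 knockouts edgeR called 0 of 9 members, and 0 had an unadjusted p under 0.05. DESeq2 and limma-voom also called 0. Of all 13830 genes 0.00723% (1 gene) were called, so the members' count was like the background. The targeted gene Rfx1 was itself not called by edgeR, at a log2 difference of -1.40 (SE 0.16, adjusted p = 0.0687). The members' log2 differences ran from -0.32 to 0.03 with a median of -0.09, and their standard errors from 0.12 to 0.26. The groups overlapped for each member, and a complete separation with knockouts lower was seen in 0.716% of genes.

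Cfap45 had 81.1, 88.5, 114 and 59.8 CPM in Rfx1 knockout replicates 1 to 4 and 86.1, 83.4, 97.8 and 110 CPM in the wild types, a log2 difference of -0.14 (95% confidence interval -0.53 to 0.26). The knockouts lay on both sides of the wild types, with replicate 3 highest and replicate 4 lowest of all 8 libraries. Efhb had 36.7, 40.4, 53.9 and 30.02 CPM against 37.8, 38.0, 41.2 and 43.0, a difference of 0.01 (interval -0.34 to 0.36). Efhc2, on the X chromosome, had 9.71, 11.3, 14.9 and 6.17 CPM against 12.8, 11.5, 14.2 and 14.02, a difference of -0.32 (interval -0.83 to 0.20), and -0.21 with a term for Y-linked counts. Over the 9 members the mean log2 offset was -0.21, -0.07, 0.33 and -0.63 in knockout replicates 1 to 4, and Foxj1 lay at -0.18, -0.01, 0.23 and -0.41 in the same libraries. Without replicate 4 the signs of Cfap45, Cfap52, Nme7 and 1700007K13Rik turned, and without replicate 3 those of Efhb and Enkur. Intervals of this width do not show that the members were alike in the 2 genotypes.

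**Figure D4:**
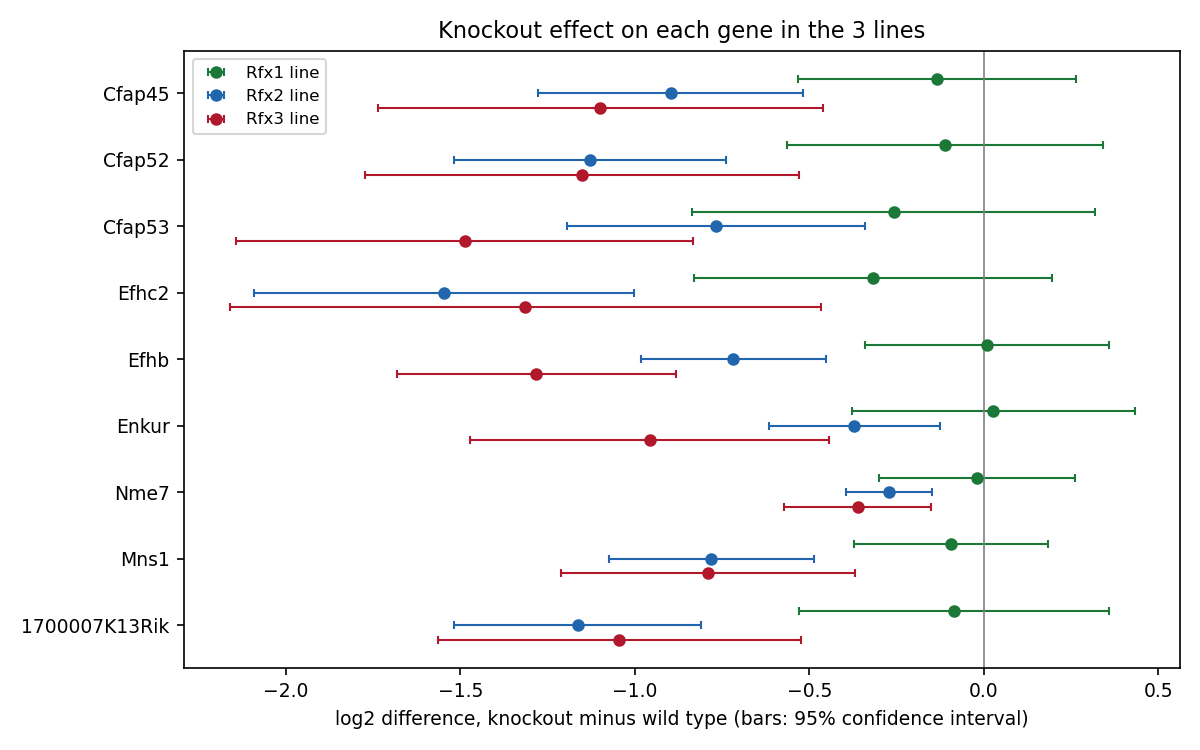
Log2 difference between knockout and wild type for each of the 9 members (vertical axis) in the 3 lines; points are fitted values and bars 95% confidence intervals. The intervals of the Rfx2 and Rfx3 lines lie below 0 for every member, and those of the Rfx1 line include 0 for every member.

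The difference between the lines was tested in a fit of all 34 libraries. Between Rfx3 and Rfx1 knockouts it passed for 2 of 9 members, against 7.75% of all genes. Efhb was lower in its knockout effect by -1.29 (SE 0.25, adjusted p = 0.00314), from effects of -1.27 and 0.01. Enkur differed by -0.97 (SE 0.30, adjusted p = 0.0409), from -0.95 and 0.03. Cfap53 (-1.22, adjusted p = 0.0589), Cfap52 (-1.03, 0.0797) and Efhc2 (-0.99, 0.205) differed by more than Enkur and did not pass. Without Rfx3 knockout replicates 4 to 6 Efhb still passed (-0.98, adjusted p = 0.0345) and Enkur did not (-0.49, 0.139). Efhb also passed with any 1 library left out. Enkur was not called when any of 17 of the 34 libraries was left out (adjusted p from 0.0515 to 0.161). These were Rfx1_KO replicates 2 and 3, Rfx1_WT 1, 2 and 3, Rfx2_KO 2, 3 and 5, Rfx2_WT 6 and 7, Rfx3_KO 4, 5 and 6, and Rfx3_WT 1, 3, 5 and 6. More members passed without Rfx3_KO replicate 1 (7 of 9), 2 (6) or 3 (4), or without Rfx1_KO replicate 4 (5).

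Between Rfx2 and Rfx1 knockouts 0 of 9 members passed in edgeR, against 0.829% of all genes, although 5 had an unadjusted p under 0.05. The smallest belonged to 1700007K13Rik, with a difference of -1.06 (95% confidence interval -1.71 to -0.40, adjusted p = 0.114), which was called without Rfx3_KO replicate 3 (0.048). Between Rfx3 and Rfx2 knockouts 0 of 9 passed, against 3.84%, and 3 had an unadjusted p under 0.05. They were Efhb (-0.58, interval -1.02 to -0.14, adjusted p = 0.131), Enkur (-0.60, interval -1.12 to -0.07) and Cfap53 (-0.73, interval -1.46 to -0.01). Efhb was called without Rfx3_KO replicate 1 (0.0342) or 2 (0.0322). The differences of Mns1 and Cfap52 were -0.02 (interval -0.48 to 0.43) and -0.04 (interval -0.70 to 0.63), and 0.40 and 0.53 without Rfx3_KO replicates 4 to 6, neither of them called. Limma-voom called 0 of 9 in both of these comparisons. These fits had no replicate block. With line and replicate number as a block, a choice made after seeing the data, 0 of 9 members were called in both, among 40 genes for Rfx2 against Rfx1 (123 without the block) and 341 for Rfx3 against Rfx2 (570 without it).

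The members were also set against Foxj1 in each library, as CPM of the member per 100 CPM of Foxj1. In the Rfx3 line this ratio was lower in every knockout than in every wild type for 7 of 9 members, a pattern that 3.25% of all genes showed, and higher for 0, as in 14.6% of all genes. For Cfap45 it ran from 3.02 to 5.18 in knockouts and from 6.00 to 6.94 in wild types, and for Cfap53 from 0.491 to 0.889 and from 1.22 to 1.91. For Efhb it was 0.985 in knockout replicate 3 and 1.69 to 1.87 in the other knockouts, against 2.51 to 2.98 in wild types. Nme7 overlapped (3.85 to 5.78 against 3.84 to 4.24), as did 1700007K13Rik (2.94 to 4.40 against 4.33 to 5.21). In the Rfx2 line the ratio separated the groups for 2 members, in opposite directions. 1700007K13Rik was lower in every knockout, at 2.28 to 2.99 against 3.02 to 4.43, as were 1.07% of all genes. Enkur was higher, at 12.9 to 14.03 against 10.5 to 12.2, as were 26.4% of all genes, so this pattern was common in the line. The ratios overlapped for the other members and for all 9 in the Rfx1 line, where 0.224% of all genes were lower and 0.578% higher in every knockout.

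**Figure D5:**
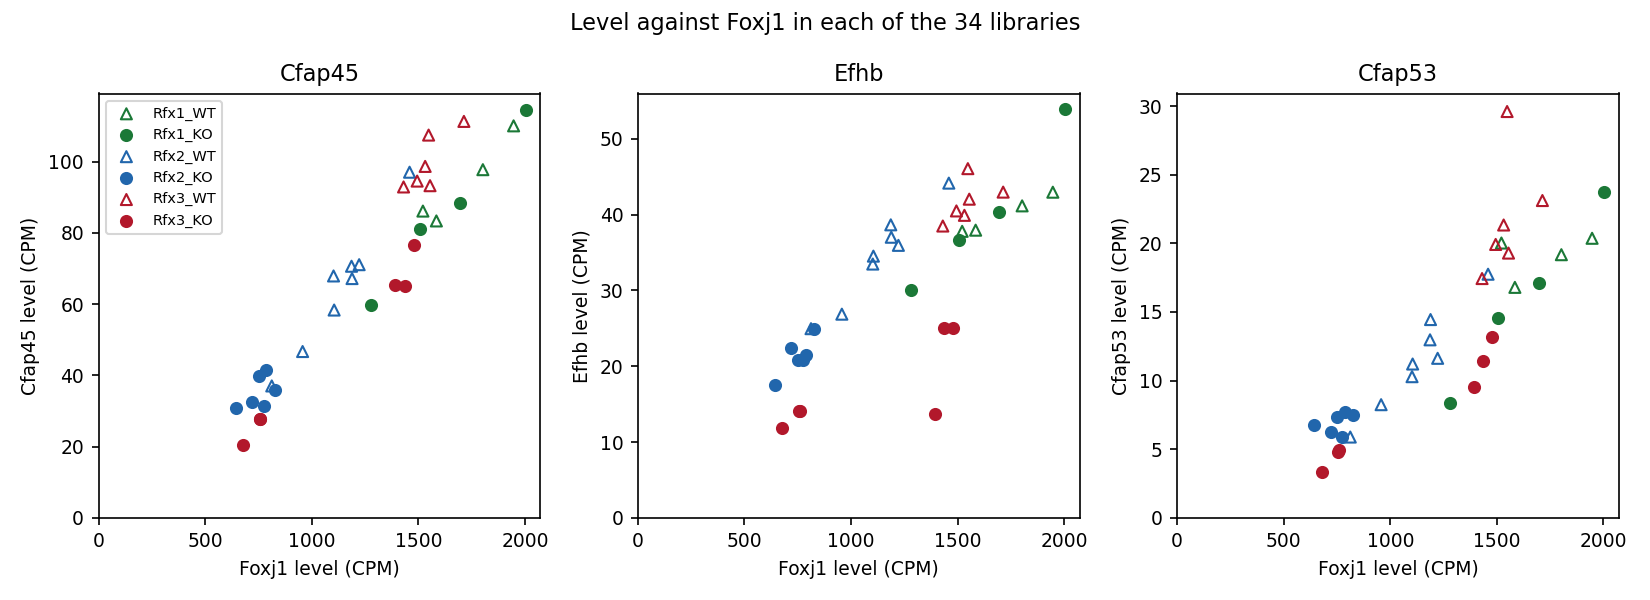
Level of Cfap45, Efhb and Cfap53 (vertical axes, CPM) against Foxj1 (horizontal axis, CPM) in the 34 libraries; open triangles are wild types, filled circles knockouts, and colours the 3 lines. Every Rfx3 knockout lies below every Rfx3 wild type in the 3 genes, with Efhb at 25.0, 25.0 and 13.7 CPM in the 3 knockouts that kept Foxj1. In the Rfx2 line 5 of 6 knockouts lie below every wild type for Efhb, 4 of 6 for Cfap45 and 0 of 6 for Cfap53.

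The members rose and fell together from library to library. Taken as deviations from the group means in log2 CPM over the 34 libraries, the correlations of the 36 pairs ran from 0.64 (Efhb with Nme7) to 0.98 (Cfap45 with Cfap52), with a median of 0.90. Each library gives all members, so these points share depth and the makeup of the culture. The separate sets of Rfx3 knockouts remain in these deviations, and so in the correlations with Foxj1 and the spread given next. Values without that group were not calculated. The correlation with Foxj1 was highest for Cfap45 (0.97) and Enkur (0.96) and lowest for Nme7 (0.80) and Efhb (0.83). The spread within groups was smallest for Nme7 (SD 0.16 in log2) and largest for Efhc2 (0.59). The 5 other genes whose log2 level followed the members' standardised mean most closely over 34 libraries, of 14824 genes, were Lrrc6 (Pearson r 0.992), Cfap206 (0.992), Maats1 (0.991), Dnali1 (0.990) and Ccdc146 (0.990). Cfap45 itself had an r of 0.993 with that mean, of which it is a part, and Enkur the lowest, 0.873.

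Most other microtubule inner proteins also fell in Rfx2 and Rfx3 knockouts, where 18.4% and 12.9% of all genes tested were called lower. Of a list of 20 genes for such proteins in the table, 19 were tested. In the Rfx1 line 0 were called by edgeR and 1 had an unadjusted p under 0.05 (median log2 difference -0.10), in the Rfx2 line 18 fell (-0.86) and in the Rfx3 line 17 fell (-1.30), with 0 higher in each. Fam166b, which encodes Cimip2b, had the smallest p in both of the latter lines, at -2.24 (SE 0.21, adjusted p = 1.93e-05) in Rfx2 knockouts and -1.96 (SE 0.33, adjusted p = 0.00247) in Rfx3 knockouts. 1700013F07Rik (Cfap276) and Ribc2 followed in the Rfx3 line (-1.30 and -1.45). In Rfx1 knockouts the smallest p values were those of Spag8 (-0.44), Tekt3 (-0.52) and Fam183b (-0.42), with adjusted p = 0.9998 for each. Fam183b (Cfap144) is also singled out after its values were seen. Its mean was 3.15 CPM in Rfx3 knockouts and 50.5 in their wild types (-3.97, SE 1.02, adjusted p = 0.0155). The means were 15.79 and 15.76 CPM in the Rfx2 line and 10.9 and 14.7 CPM in the Rfx1 line. Its wild-type mean was thus highest in the Rfx3 line, and its range over libraries is not given here. Of 20 further axonemal genes, which encode parts of the dynein arms, spokes, nexin links or central apparatus, 0, 20 and 19 fell in the Rfx1, Rfx2 and Rfx3 lines (medians -0.01, -0.84 and -1.23). In the Rfx1 line 1 of these, Spag16, had an unadjusted p under 0.05.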

How the data were processed

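The authors deposited raw read counts per gene, with 1 column per library and no normalization. Per the submitters' processing notes, CASAVA 1.8.2, STAR 2.4 and featureCounts 1.4.6 were used with GRCm38. Whether strand was used in counting, and which annotation, is not given in the sources used here. Of 21647 genes, 21583 had a symbol in GENCODE M21, and the 64 others were kept without one. Knockouts were tested against wild types within each line in edgeR 4.0.16 (R 4.3.3), by the two-sided quasi-likelihood F test with TMM scaling. The filterByExpr function removed low genes (min.count 10, min.total.count 15). Called means a Benjamini-Hochberg adjusted p below 0.05 over the genes left. A standard error is the log2 difference over the root of F. For differences between lines, all 34 libraries were fitted at once. CPM use TMM-scaled totals, and levels per kilobase use the exon length in GENCODE M21. Log2 CPM carry a prior count of 2. The fits were tested on simulated data with known changes. Replicates were not copies: chi-squared over its degrees of freedom was 4.01 to 203 between them. Replicate numbers were checked for pairing by the correlation of deviations from group means. In the Rfx2 line all 6 same-numbered pairs were above 0.1 (0.16 to 0.61), which was taken as pairing. In the Rfx1 line 3 of 4 were, and in the Rfx3 line 1 of 6. The standard errors and adjusted p given for each line come from fits without a replicate block, and the block is among the alternatives.

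The members and lists were chosen with earlier results of these data known. Of 23 further microtubule inner proteins listed, 20 matched, some under an older symbol. Genes named are the 9 members, the targeted genes, Foxj1, Mcidas, in each line the 3 other microtubule inner proteins with the smallest p, and the 5 genes most like the members. The called markers of other cells were named after their values were seen. Some genes that this rule or these lists name are not reported here. Alternatives were DESeq2 1.42.0, limma-voom 3.58.1, other scaling, no filter, the replicate block, a fit of all groups, a Y-linked term and subsets of replicates.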

Additional observations from a re-analysis of the deposited data

Results flagged for a closer look

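A test of the difference in knockout effect between lines passed the threshold for 2 of the 9 members. The Rfx3 effect minus the Rfx1 effect was -1.29 in log2 for Efhb (adjusted p = 0.00314) and -0.97 for Enkur (adjusted p = 0.0409). Cfap53 (-1.22, adjusted p = 0.0589), Cfap52 (-1.03, 0.0797) and Efhc2 (-0.99, 0.205) differed by more than Enkur but fell short of the threshold. Of all genes, 7.75% passed this test. The call of Efhb held with any 1 library left out. That of Enkur was lost when any of 17 of the 34 libraries was left out (adjusted p from 0.0515 to 0.161). Among 54 sets of replicates, each 1 member in 1 group, 0 had a library that stood apart from the others by Dixon's test at the 95% level.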

How the results depend on the processing

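The members' calls in Rfx2 and Rfx3 knockouts mostly held under the alternatives. Over all alternatives and left-out libraries, 201 of 207 member values in the Rfx2 line and 184 of 198 in the Rfx3 line kept their direction and their side of the threshold, and the others fell short of the threshold in the same direction. With replicates 1 to 4 only, 1 of 9 members was called in the Rfx3 line, among 194 genes, and 2748 genes were called in the Rfx2 line. That fit uses fewer samples. In the Rfx3 line 5367 genes were called in a fit of all groups, 996 without Rfx3_KO replicates 4 to 6 and 8189 without replicates 1 to 3, both chosen after seeing the data, and 2139 to 5549 with 1 library left out.

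In the Rfx1 line 0 to 9 genes were called in all: 9 by DESeq2, 2 with no filter, 6 in a fit of all groups, 0 with a Y-linked term and 0 to 9 with 1 library left out. Signs of uncalled members turned there: Efhb was -0.023 with limma-voom, and 1700007K13Rik 0.059 with the Y-linked term. With 1 library left out, Cfap45 ran from -0.31 to 0.0049, Cfap52 from -0.32 to 0.043, Efhb from -0.17 to 0.13, Enkur from -0.18 to 0.15, Nme7 from -0.12 to 0.074 and 1700007K13Rik from -0.27 to 0.061.

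With the replicate block, 9 of 9 members were called in the Rfx2 and the Rfx3 line (4275 and 2205 genes in all) and 0 in the Rfx1 line (0 genes). The block turned the signs of Efhb (-0.020) and Enkur (-0.0043) in the Rfx1 line, where same-numbered libraries correlated at -0.09 to 0.45, against -0.37 to 0.20 in the Rfx3 line. It changed no other member's call. Between lines, line and replicate number as a block, chosen after seeing the data, left 40 genes called for Rfx2 minus Rfx1 and 341 for Rfx3 minus Rfx2, where Efhc2 (-0.10) and 1700007K13Rik (-0.034) turned. For Rfx3 minus Rfx1 it called 2 members, Efhb and Enkur, among 919 genes. A library correlated best with its own number in 2 of 4, 3 of 6 and 1 of 6 pairs of the Rfx1, Rfx2 and Rfx3 lines.

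Differences between lines depended more on the setting. For Rfx3 minus Rfx1, 4 members were called by limma-voom, 1 with no filter, 1 without Rfx3_KO replicates 4 to 6 (284 genes) and 1 to 7 with 1 library left out (286 to 2041 genes). For Rfx2 minus Rfx1, limma-voom called 57 genes, and 0 or 1 member and 46 to 292 genes were called with 1 library left out. For Rfx3 minus Rfx2, leaving out Rfx3_KO replicates 4 to 6 gave 1964 genes and turned Cfap45 (0.37), Cfap52 (0.53), Nme7 (0.13) and Mns1 (0.40), none of them called, and limma-voom turned Efhc2 (-0.23) and 1700007K13Rik (-0.071). With 1 library left out, 412 to 961 genes were called, and Cfap52 ran from -0.22 to 0.15, Efhc2 from -0.083 to 0.44, Mns1 from -0.15 to 0.11 and 1700007K13Rik from -0.077 to 0.25. Unless stated, the cause was not tested. The lowest counts of a member in a library were 53 for Efhc2 and 85 for Cfap53.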
